A study of Homo sapiens with 4 samples.

Results

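Cultures labelled HT-29, an established epithelial line from a human colorectal adenocarcinoma, were exposed to GANT61 at 20 µM for 48 h and compared with cultures of the same line that received the solvent DMSO for the same time. The GANT61 array and the DMSO array lay on the same beadchip, here called chip 2. Each group had 1 array, so no difference given below has a replicate check, no p-value could be computed, and every value compares 1 array with 1 other. The comparison takes in every probe whose detection p-value fell below 0.01 with GANT61, with DMSO or with both. They numbered 17814 of 47227 probes and, with 1 probe per gene, represented 10471 of 20044 genes (52.2%). Of these genes, 9391 were above background on both arrays, 307 with GANT61 only and 773 with DMSO only. The series also holds a cyclopamine array and its own control, together on chip 1, which enter here only as a side-by-side comparison.

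Hedgehog signalling begins when a secreted ligand such as SHH binds the receptor PTCH1, which then releases the membrane protein SMO from inhibition. SMO acts through the primary cilium on the GLI transcription factors, and these turn on targets that include GLI1 and PTCH1 themselves. GANT61 was found in a screen as an antagonist of GLI-driven transcription and acts downstream of SMO, whereas cyclopamine binds SMO. In the gut, Hedgehog ligands come from the epithelium and act mainly on the mesenchyme around it, while WNT signalling maintains the proliferating cells of the epithelial crypts.

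Many of the gene groups described below are known to be controlled through short promoter elements. The 250 bases before the annotated start are therefore shown for the member of 7 groups that had the largest difference among those above background on both arrays and holding the element searched for. TXNRD1 (chr12:104215529-104215778, plus strand) stands for the NRF2 targets, with the antioxidant element TGACNNNGC in capitals. IFI44L (chr1:78620198-78620447, plus strand) stands for the interferon-stimulated genes, with TTTCNNTTTC in capitals, which reads on the opposite strand at both places. CXCL8 (chr4:73740319-73740568, plus strand) stands for the inflammatory genes, with the match to GGGANNNNCC in capitals. That is a loose search pattern for NF-kB elements, and the marked stretch need not be the site that NF-kB uses. DNAJB9 (chr7:108569624-108569873, plus strand) stands for the chaperones of the endoplasmic reticulum, with CCAAT in capitals. CKAP2L (chr2:112764610-112764859, minus strand) stands for the mitosis genes, with the cell cycle element TTTGAA and CCAAT in capitals. MT1X (chr16:56682220-56682469, plus strand) stands for the metallothioneins, with the metal response core TGCNCNC in capitals. IGFBP6 (chr12:53097417-53097666, plus strand) stands for the reported GLI targets, with the GLI core CCACCCA in capitals. The sequences come from RefSeq on GRCh38.p14 and run 5′ to 3′ on the strand of the gene.
TXNRD1: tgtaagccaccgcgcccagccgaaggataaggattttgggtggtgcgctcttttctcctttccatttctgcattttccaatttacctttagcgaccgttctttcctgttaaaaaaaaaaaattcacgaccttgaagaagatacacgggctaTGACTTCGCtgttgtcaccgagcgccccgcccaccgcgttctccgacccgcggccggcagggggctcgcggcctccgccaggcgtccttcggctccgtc
IFI44L: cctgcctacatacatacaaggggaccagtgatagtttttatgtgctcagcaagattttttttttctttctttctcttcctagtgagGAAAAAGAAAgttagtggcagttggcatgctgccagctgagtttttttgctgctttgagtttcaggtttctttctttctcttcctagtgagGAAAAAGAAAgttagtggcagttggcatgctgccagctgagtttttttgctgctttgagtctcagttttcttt
CXCL8: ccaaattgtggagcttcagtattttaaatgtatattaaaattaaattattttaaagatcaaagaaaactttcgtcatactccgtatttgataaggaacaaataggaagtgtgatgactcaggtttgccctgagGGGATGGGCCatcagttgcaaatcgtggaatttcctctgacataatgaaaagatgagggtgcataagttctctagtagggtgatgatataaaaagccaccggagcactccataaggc
DNAJB9: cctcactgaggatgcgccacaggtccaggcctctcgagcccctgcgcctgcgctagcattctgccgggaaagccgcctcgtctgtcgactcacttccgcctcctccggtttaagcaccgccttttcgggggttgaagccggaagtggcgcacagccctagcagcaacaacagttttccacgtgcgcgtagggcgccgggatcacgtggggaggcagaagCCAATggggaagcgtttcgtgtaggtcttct
CKAP2L: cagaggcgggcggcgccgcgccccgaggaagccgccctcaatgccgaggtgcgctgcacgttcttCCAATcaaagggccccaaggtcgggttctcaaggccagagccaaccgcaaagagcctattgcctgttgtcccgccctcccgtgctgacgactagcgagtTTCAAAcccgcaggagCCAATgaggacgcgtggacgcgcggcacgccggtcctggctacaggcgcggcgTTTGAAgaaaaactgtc
MT1X: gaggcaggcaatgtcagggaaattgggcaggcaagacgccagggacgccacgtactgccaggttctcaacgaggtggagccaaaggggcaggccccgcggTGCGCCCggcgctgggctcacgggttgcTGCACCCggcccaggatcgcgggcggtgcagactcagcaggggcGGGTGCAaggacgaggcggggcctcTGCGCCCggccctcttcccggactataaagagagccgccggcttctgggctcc
IGFBP6: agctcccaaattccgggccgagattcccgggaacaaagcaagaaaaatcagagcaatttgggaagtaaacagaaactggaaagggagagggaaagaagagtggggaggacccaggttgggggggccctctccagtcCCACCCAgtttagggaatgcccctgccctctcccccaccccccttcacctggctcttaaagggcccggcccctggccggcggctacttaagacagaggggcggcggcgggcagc

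Both strands of 27305 such promoters were searched, and the motifs marked in 1 promoter do not overlap each other. TGACNNNGC was present in 24.1% of the promoters of NRF2 targets, against 11% of all promoters. TTTCNNTTTC was present in 57.6% of those of interferon-stimulated genes, against 3.07% of all, and GGGANNNNCC in 68.8% of those of the inflammatory list, against 22.1%. TTTGAA was found in 47.4% of G2 and mitosis promoters, against 13.6% of all, and CCAAT in 68.4% of them and 86.4% of those of the chaperones of the endoplasmic reticulum, against 33%. TGCNCNC was in 5 of 8 promoters of the metallothionein and zinc list (62.5%, against 48.4%). CCACCCA was in 3 of 18 promoters of reported GLI targets (16.7%, against 8.02%). Among promoters of tested genes TGACNNNGC was in 12.5%, TTTCNNTTTC in 2.33%, GGGANNNNCC in 27.5% and TTTGAA in 8.65%. There CCAAT was in 36%, TGCNCNC in 56.2% and CCACCCA in 7.89%. Among tested mitosis genes, the 27 whose promoter held TTTGAA had a median log2 ratio of -0.79, and the 28 others with a promoter in the table had -0.63. Among tested interferon-stimulated genes the 19 with TTTCNNTTTC had a median of 1.46 and the 13 others 1.42. The 7 NRF2 targets with TGACNNNGC had 0.95 and the 18 others 0.65, and the 14 inflammatory genes with GGGANNNNCC had 1.23 and the 4 others 0.61. CCAAT gave -0.75 in 38 mitosis genes with it and -0.51 in 17 without, and 0.79 in 16 chaperone genes of the endoplasmic reticulum with it and 0.36 in 3 without. The 2 tested GLI targets with CCACCCA had 0.54 and the 8 others 0.37, and the 15 replication genes with the E2F core TTTNNCGC had -0.039 and the 19 others -0.28. None of these differences was tested, and several rest on few genes. A match marks letters only and says nothing about binding.

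Epithelial markers were detected in both cultures. Of 13 intestinal epithelial markers with a probe, 10 were above background with GANT61 and 10 with DMSO, and their summed normalised intensity was 33682 with GANT61 and 34230 with DMSO. EPCAM, an epithelial adhesion molecule, had a normalised intensity of 8328 with GANT61 and 8138 with DMSO, and CDH1, the epithelial cadherin, 3523 with GANT61 and 3660 with DMSO. A smaller part of the markers of other cell types was detected, and their summed intensities were far lower. Of 11 mesenchymal markers, 2 were above background with GANT61 and 3 with DMSO (summed intensity 409 with GANT61 and 396 with DMSO), and the fibroblast collagen genes COL1A1, COL1A2 and COL3A1 were on neither array. Of 10 leukocyte markers, 3 were above background with GANT61 and 5 with DMSO (summed 866 with GANT61 and 857 with DMSO), and the pan-leukocyte gene PTPRC and the T cell genes CD3D, CD3E and CD2 were on neither. Of 9 endothelial markers, 2 were above background on each array (summed 823 with GANT61 and 612 with DMSO). Some of these markers were not dim: CD14 had 294 with GANT61 and 256 with DMSO, CD68 274 with GANT61 and 264 with DMSO. The endothelial gene ESAM had 583 with GANT61 and 350 with DMSO. All 3 were above the epithelial marker CEACAM6 (178 with GANT61, 77.8 with DMSO). Fewer probes were above background with GANT61 than with DMSO, 15958 against 17068, while median deposited intensity was 74.9 with GANT61 and 72.8 with DMSO. The part of this difference in the results below was not tested. In RNA from a whole culture, fewer cells of one kind and less RNA per cell cannot be told apart.

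More genes were higher than lower with GANT61, and the higher ones reached larger ratios. Of the 10471 genes, 366 were at least 2-fold higher with GANT61 (3.5%) and 216 at least 2-fold lower (2.06%). Of the higher genes 30 were above background on 1 array only, and the bound of the fold reached 2-fold for 22 of them. Of the lower genes 36 were above background on 1 array only, and the bound reached 2-fold for 15. The counts depended on the processing, with 185 higher and 135 lower in the deposited log2 series table and 236 higher and 85 lower without background correction. At the smaller threshold of 1.5-fold, 1103 were higher (10.5%) and 987 lower (9.43%). Over the 9391 genes above background on both arrays 10.6% were higher and 8.88% lower. These shares are the background for the gene groups below, whose members on both arrays are counted where members detected on 1 array would alter the count. Among genes above background on both arrays, 53 were higher and 3 lower by 4-fold or more, and 10 higher and 0 lower by 8-fold or more. The median log2 ratio of all tested genes was -0.012, and 5% of genes lay below -0.75 and 5% above 0.85. For 1900 genes with 2 usable probes, the log2 ratios of the pair had an SD of 0.27 per probe, which covers neither the spread between cultures nor that of labelling. Of 516 genes above background on both arrays and at least 2-fold apart, 117 had another such probe. For 111 of these every other probe had the same sign, and for 84 every other probe was at least 1.5-fold apart in the same direction.

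**Figure D1:**
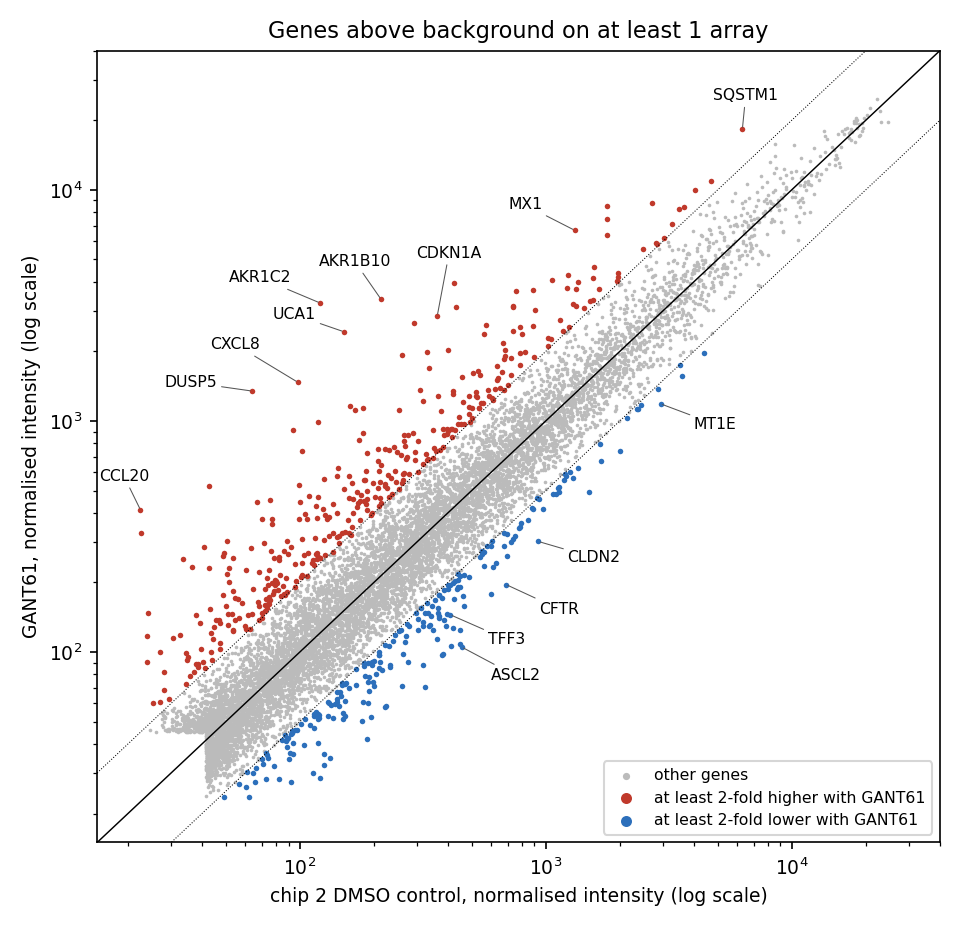
Normalised intensity of each tested gene with GANT61 (vertical, log scale) against chip 2 DMSO (horizontal, log scale). The solid line marks equal levels and dotted lines a 2-fold difference, and the 366 genes higher with GANT61 reach farther from the line than the 216 lower ones.

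The largest difference between genes measured on both arrays was that of AKR1C2, an aldo-keto reductase that acts on steroids and reactive aldehydes, with a normalised intensity of 3239 with GANT61 and 121 with DMSO (26.8-fold higher). DUSP5, a nuclear phosphatase that inactivates ERK, had 1347 with GANT61 and 64.0 with DMSO (21-fold higher). UCA1, a long noncoding RNA, had 2433 with GANT61 and 151 with DMSO (16.1-fold higher). All 3 were dim in the DMSO culture and bright in the GANT61 culture. SDCBP2, an adaptor protein of the syntenin family, had 915 with GANT61 and 94.1 with DMSO, and its 3 probes had log2 ratios from 2.61 to 3.43. LOXL4, a matrix-modifying amine oxidase, had 2665 with GANT61 and 290 with DMSO (9.18-fold higher). RNY4, a small Y RNA, had 985 with GANT61 and 119 with DMSO (8.3-fold higher). TYMP, the enzyme thymidine phosphorylase, and RGCC, a regulator of the cell cycle, were 7.28-fold and 7.23-fold higher. Several genes were below background in the DMSO culture and have only a lower bound. RBPMS2, an RNA-binding protein, was at least 7.88-fold higher with GANT61 (328 with GANT61, 22.6 with DMSO), SLC5A3, the importer of myo-inositol, at least 6.86-fold, TMEM158, a membrane protein, at least 6.07-fold and CLIP4, a protein with a microtubule-binding domain, at least 5.64-fold.

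On the lower side the leading genes included factors of the intestinal crypt and transporters of the epithelial surface. ASCL2, the transcription factor of crypt stem cells, had a normalised intensity of 105 with GANT61 and 456 with DMSO (4.34-fold lower). DEPTOR, an inhibitor of MTOR, had 108 with GANT61 and 447 with DMSO, and its probes had log2 ratios of -2.05 and -1.79. MYB, a transcription factor of proliferating progenitors, had 97.9 with GANT61 and 381 with DMSO (3.89-fold lower). EDN1, the vasoactive peptide endothelin, was 3.87-fold lower and PDZK1, a scaffold of membrane transporters, also 3.87-fold. CFTR, the epithelial chloride channel, had 196 with GANT61 and 689 with DMSO (3.52-fold lower). The amino acid transporter genes SLC38A11 and SLC7A2 were 3.84-fold and 3.72-fold lower. KLRC2, a receptor known from natural killer cells, was 3.66-fold lower, PTPRO, a receptor phosphatase, 3.62-fold, PPP1R1B, a phosphatase inhibitor, 3.6-fold, GPC4, a cell surface proteoglycan, 3.54-fold, and TYMSOS, a noncoding RNA opposite the thymidylate synthase gene, 3.34-fold. NUDT1, which clears oxidised nucleotides, stood lowest at a log2 ratio of -2.20, but its other probe had -0.42, so the size of its difference is uncertain. POU2AF3, a cofactor known from tuft cells, was 3.85-fold lower, and COLCA1, below background with GANT61, at least 2.68-fold. These 2 genes overlap on chromosome 11 (111298546 to 111308735 and 111293389 to 111305048, GRCh38.p14). Other genes below background with GANT61 were HOXC4, a homeobox factor (at least 4.17-fold lower), KIF12, a kinesin (at least 2.95-fold), REG4, a secreted lectin (at least 2.78-fold), and SP5, a WNT-responsive factor (at least 2.77-fold).

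**Figure D2:**
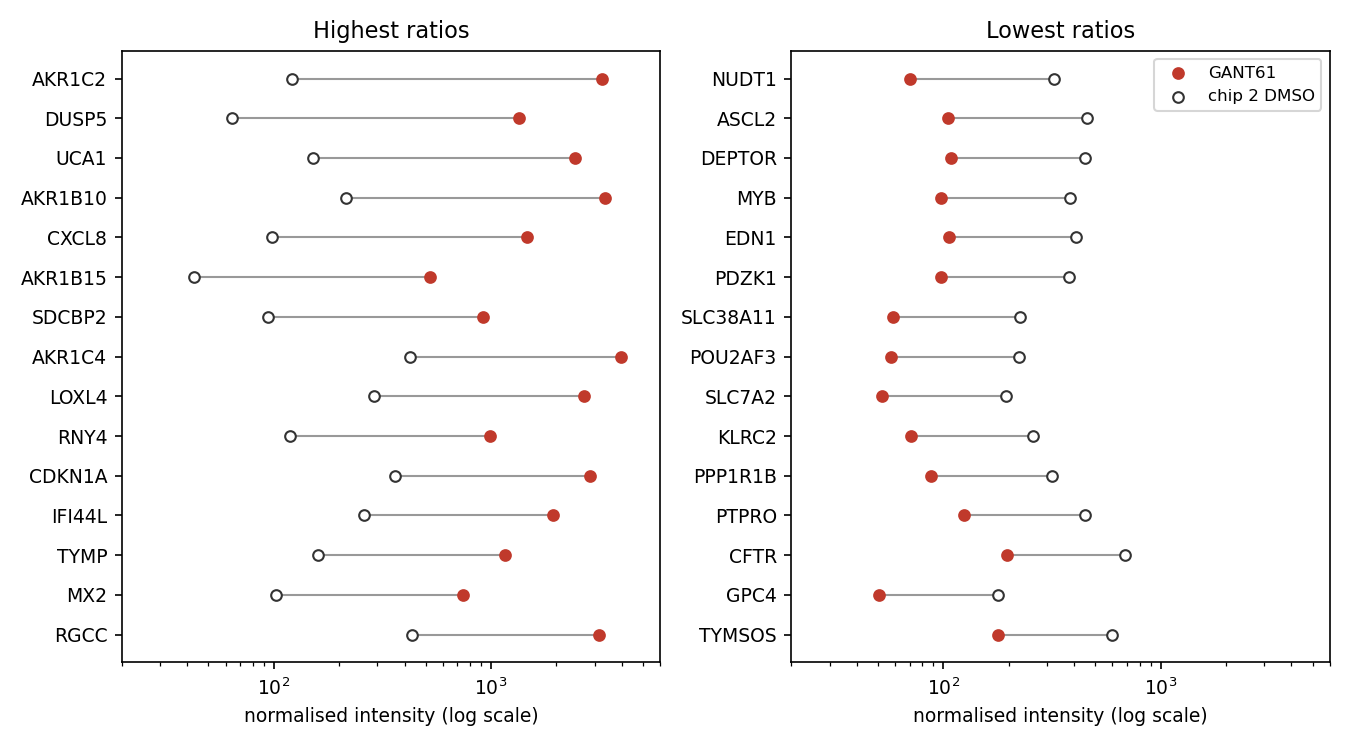
Normalised intensity (horizontal, log scale) with GANT61 (filled) and chip 2 DMSO (open) for the 15 genes with the highest and the 15 with the lowest ratios among genes above background on both arrays. AKR1C2 had 3239 with GANT61 and 121 with DMSO, and ASCL2 105 with GANT61 and 456 with DMSO.

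The targeted pathway itself was mostly below the reach of the arrays. Of 23 Hedgehog components with a probe, 8 could be tested, and neither array detected SHH, PTCH1, SMO, the factors GLI1, GLI2 and GLI3, or SUFU, which holds GLI proteins inactive. A difference in these genes was therefore not detectable. Among the 8, 1 was higher by 1.5-fold or more (12.5%, against 10.5% of all genes) and 0 lower, with a median of -0.13 against -0.012 for all genes. The higher one was GSK3B, a kinase that marks GLI proteins for processing, with 446 with GANT61 and 231 with DMSO (log2 ratio 0.95). CSNK1A1, another such kinase, had 0.26, with 3 probes from 0.08 to 0.79, KIF7, a ciliary kinesin, 0.40, and IFT88, a ciliary transport protein, -0.38. STK36, a kinase of the relay, had -0.17 and DISP1, which releases the ligand, -0.08. The ligand gene IHH (at least 1.1-fold lower) and BTRC, a ubiquitin ligase subunit that acts on GLI proteins (at least 1.05-fold lower), were above background with DMSO only and close to the limit. The 6 components above background on both arrays had a median of 0.092, so the sign of the list is not settled.

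The arrays held probes for 31 reported GLI targets and 17 passed the detection limit. Of the 16 above background on both arrays, 6 were higher by 1.5-fold or more with GANT61 (37.5%, against 10.6% of all such genes). Lower by as much were 2 (12.5%, against 8.88%). GLI1, PTCH1, HHIP and BCL2, which are among the most used readouts of GLI activity, were above background on neither array. VEGFA, an angiogenic growth factor, had 438 with GANT61 and 136 with DMSO, with probes at 1.69 and 1.15. IGFBP6, which binds insulin-like growth factors, had 2567 with GANT61 and 889 with DMSO (log2 ratio 1.53). SPP1, the bone matrix protein osteopontin, was above background with GANT61 only (at least 1.75-fold higher). TNFRSF10B, a receptor of the death ligand TRAIL, had 0.90, ABCG2, a drug efflux pump, 0.72, JAG2, a Notch ligand, 0.67 (other probe 0.20), and MYC 0.64. The 2 lower members were CD44, an adhesion receptor (2341 with GANT61, 4063 with DMSO, 3 probes from -1.37 to -0.80), and FOXM1, a transcription factor of mitotic genes (148 with GANT61, 229 with DMSO, probes at -0.63 and -0.79). FOXA2 had -0.58, CCNE1 0.51, CFLAR -0.46, BMI1 0.23, IGF2 0.17, CCND1 0.12, RAB34 0.11 and BMP4 0.027. The median of the tested targets was 0.23. Several of them also belong to other groups described here, VEGFA to the hypoxia genes and MYC and CD44 to the WNT targets.

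Many genes of detoxification and redox defence were higher with GANT61. NRF2, encoded by NFE2L2, is the transcription factor that turns on antioxidant and conjugating enzymes under electrophilic or oxidative stress. Of 30 tested NRF2 targets 17 were higher by 1.5-fold or more (56.7%, against 10.5% of all genes) and 0 lower, the median was 0.78, and the lowest member stood at 0.13. TXNRD1, the cytosolic thioredoxin reductase whose promoter is shown above, had 3112 with GANT61 and 737 with DMSO (probes at 2.08 and 2.35). SRXN1, a sulfiredoxin, had 1217 with GANT61 and 317 with DMSO (log2 ratio 1.94). Both subunits of the enzyme that begins glutathione synthesis were higher, GCLC with 759 with GANT61 and 221 with DMSO and GCLM with 1545 with GANT61 and 458 with DMSO. SLC7A11, the cystine importer, had 137 with GANT61 and 47 with DMSO, and HMOX1, which degrades heme, 203 with GANT61 and 79.7 with DMSO. The NADPH-producing enzymes ME1 and PGD had 1.12 and 0.95, TXN 0.72 and NQO1 0.79. NFE2L2 and its inhibitor KEAP1 themselves had 0.32 and 0.27, below the 1.5-fold threshold.

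The aldo-keto reductases, many of which are also NRF2 targets in human cells, had a median of 2.53 over 8 tested genes. Over the members with a probe, detected or not, the median was 1.05. Of the 8, 5 were higher by 1.5-fold or more (62.5%, against 10.5%) and 1 lower (12.5%, against 9.43%). AKR1B10, which reduces retinal, had 3359 with GANT61 and 214 with DMSO (15.7-fold higher), AKR1C4 3952 with GANT61 and 424 with DMSO (9.32-fold higher), and AKR1C3 6348 with GANT61 and 1780 with DMSO (log2 ratio 1.83). AKR1B15, a close relative of AKR1B10, had 521 with GANT61 and 42.8 with DMSO (12.2-fold higher). The sequences of these relatives are so alike that a probe can bind more than 1 transcript, and the symbols are uncertain to that extent. More distant members did not share the pattern: AKR7A3, an aldehyde reductase, had 695 with GANT61 and 1110 with DMSO (probes at -0.68 and -0.59), AKR7A2 had -0.25 and AKR1D1 0.27. A further list joined targets of the aryl hydrocarbon receptor AHR, a sensor of aromatic compounds, with other xenobiotic enzymes such as CYP3A5 (0.64). Of its 7 tested genes 5 were higher by 1.5-fold or more (71.4%, against 10.5%) and 1 lower (14.3%, against 9.43%). UGT1A6, which conjugates glucuronic acid, had 609 with GANT61 and 209 with DMSO, and TIPARP, a feedback inhibitor of AHR, 915 with GANT61 and 349 with DMSO. UGT1A6 and NQO1 (0.79) were given among the NRF2 targets as well, so the lists are not separate. CYP1B1, a classical AHR target, ran the other way with 143 with GANT61 and 342 with DMSO (log2 ratio -1.26), and CYP1A1 was above background on neither array.

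Part of the genes of the integrated stress response were higher. When translation initiation factor eIF2 is phosphorylated, ATF4 is made and drives genes for amino acid uptake and synthesis, tRNA charging and stress signalling. Of 30 tested genes of this list 14 were higher by 1.5-fold or more (46.7%, against 10.5%) and 1 lower, with a median of 0.57. DDIT3, which encodes the factor CHOP, had 1140 with GANT61 and 180 with DMSO (log2 ratio 2.66). ATF3 had 529 with GANT61 and 99.7 with DMSO, and PPP1R15A, which brings the eIF2 phosphatase back, 2589 with GANT61 and 571 with DMSO. GDF15, a stress cytokine that also counts as a p53 target, had 8540 with GANT61 and 1772 with DMSO, and TRIB3, a pseudokinase, 4080 with GANT61 and 1057 with DMSO. By role, the 5 transporters had 3 members higher by 1.5-fold or more and a median of 0.81, and the 3 serine synthesis genes had 0 higher and a median of -0.40. The single gene at least 1.5-fold lower was PSPH, the last enzyme of serine synthesis, with 372 with GANT61 and 850 with DMSO, although its other probe had -0.39. DDIT4, an inhibitor of MTOR, had 4163 with GANT61 and 1561 with DMSO.

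Many genes of chaperones and quality control in the endoplasmic reticulum were higher as well. Of 19 tested genes 11 were higher by 1.5-fold or more (57.9%, against 10.5%) and 0 lower, the median being 0.77. DNAJB9, a cochaperone that restrains the sensor IRE1, had 625 with GANT61 and 143 with DMSO (log2 ratio 2.12). HSPA5, the central chaperone BiP, had 458 with GANT61 and 187 with DMSO, MANF, a secreted folding factor, 2741 with GANT61 and 1147 with DMSO, and SDF2L1, a cochaperone of BiP, 1339 with GANT61 and 519 with DMSO. The degradation factor EDEM1 had 1.31, and SYVN1, a ubiquitin ligase of the same route, had probes at 1.07 and -0.20, which disagree. Heat shock genes, mostly of the cytosol but with mitochondrial members and the collagen chaperone SERPINH1 (-0.58), had smaller ratios. Of 19 tested, 5 were higher by 1.5-fold or more (26.3%, against 10.5%) and 0 lower, the median being 0.33. The highest was HSPH1, a nucleotide exchange factor, with 4185 with GANT61 and 1958 with DMSO. HSPA1B, an inducible HSP70 gene with a near-identical relative, had 5705 with GANT61 and 3185 with DMSO, and HSPA6 0.72. Of 28 tested proteasome subunits, 0 were higher by 1.5-fold or more and 0 lower.

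Some of the lipid synthesis genes, which are driven by the SREBP factors when sterols or fatty acids are short, were also higher. Of 17 tested cholesterol synthesis genes 8 were higher by 1.5-fold or more (47.1%, against 10.5%) and 0 lower, the median being 0.57. INSIG1, which retains SREBP in the endoplasmic reticulum, had 3007 with GANT61 and 902 with DMSO (probes at 1.74 and 1.48). HMGCS1, at the start of the pathway, had 1633 with GANT61 and 661 with DMSO, SQLE, which oxidises squalene, 5532 with GANT61 and 2476 with DMSO, and LSS, which closes the sterol rings, 1076 with GANT61 and 487 with DMSO (other probe 0.39). MSMO1, a later enzyme, had 1.23, with 3 probes from -0.055 to 1.23, and DHCR7, which acts near the end, 1.11. Of 13 fatty acid and lipid storage genes 7 were higher by 1.5-fold or more (53.8%, against 10.5%) and 0 lower, the median being 0.70. ACSL1, which activates fatty acids, had 563 with GANT61 and 125 with DMSO (log2 ratio 2.17), FASN, the fatty acid synthase, 8787 with GANT61 and 2702 with DMSO, and LPIN1, a phosphatidate phosphatase, 775 with GANT61 and 241 with DMSO. PLIN2, a coat protein of lipid droplets, had 0.94 and the desaturase SCD 0.89.

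**Figure D3:**
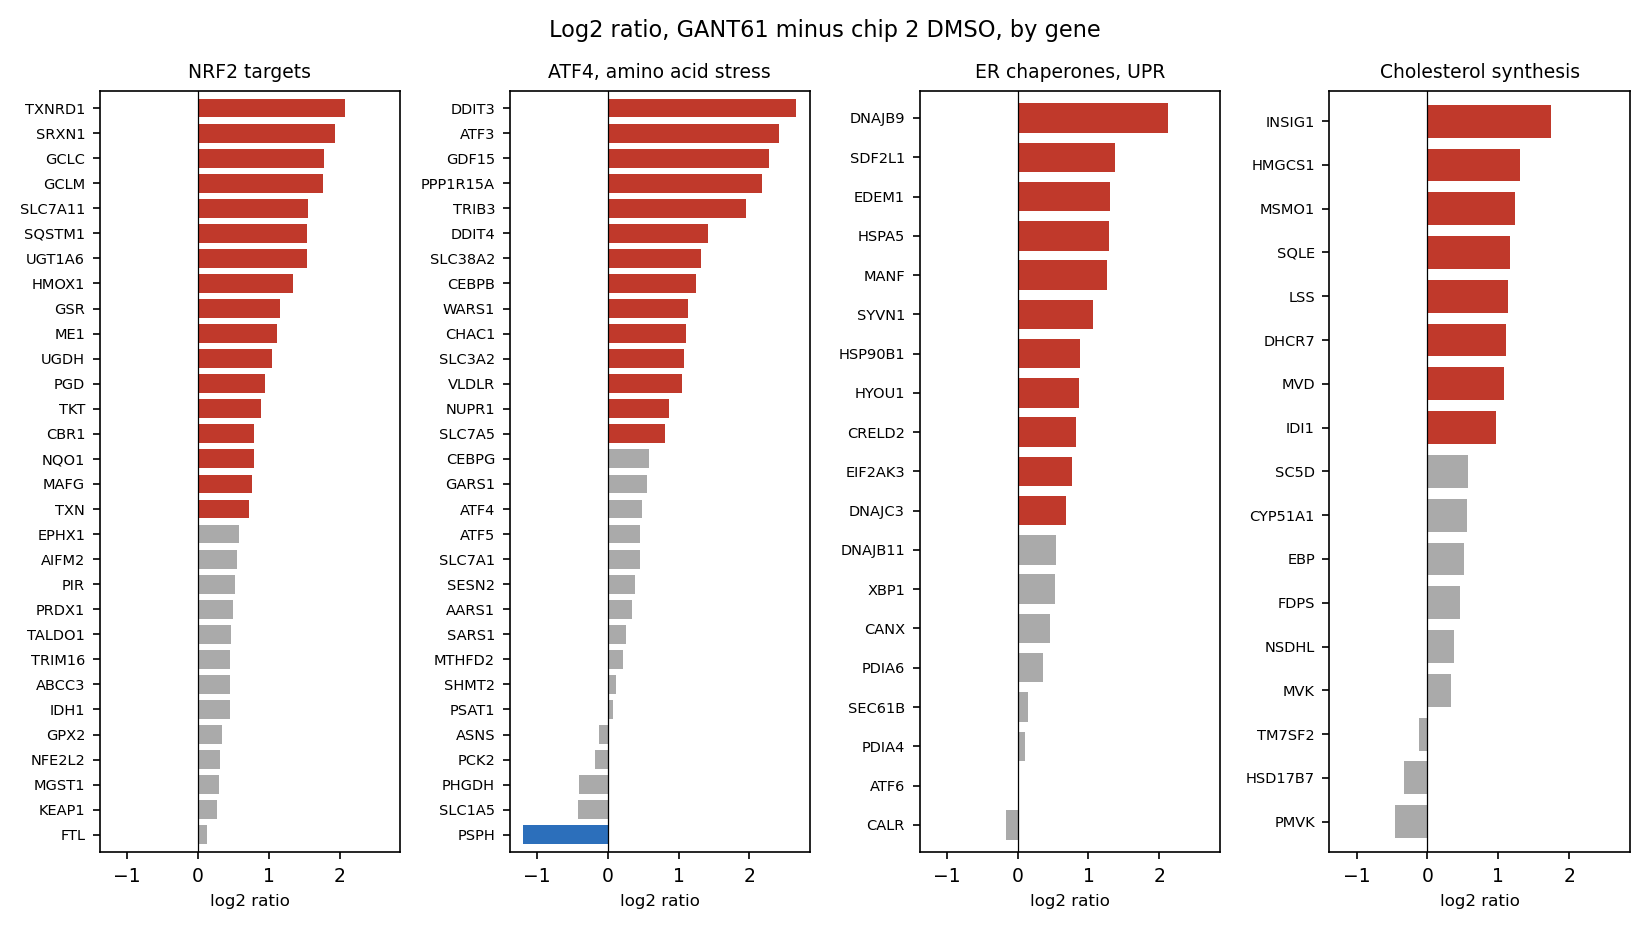
Log2 ratio, GANT61 minus chip 2 DMSO, of every tested member of 4 lists, with members at least 1.5-fold higher in red and lower in blue. TXNRD1 (2.08), DDIT3 (2.66), DNAJB9 (2.12) and INSIG1 (1.74) lead their lists, and PSPH (-1.19) is the 1 blue bar.

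Lysosome and autophagy genes were partly higher, 13 of 29 tested at 1.5-fold or more (44.8%, against 10.5%) and 0 lower, with a median of 0.53. GABARAPL1, a ubiquitin-like protein of the autophagosome, had 754 with GANT61 and 207 with DMSO, and WIPI1, which acts at its formation, 284 with GANT61 and 92.5 with DMSO. SQSTM1, the autophagy receptor p62 and an NRF2 target, had 18279 with GANT61 and 6301 with DMSO (log2 ratio 1.54). CTSL, a lysosomal protease, had probes at 1.35 and 1.40, NPC1, which exports cholesterol from lysosomes, 1.16, and ULK1, the kinase that starts autophagy, 0.97 and 1.00.

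Glycolysis and hypoxia genes and genes of respiration lay on opposite sides. Of 27 tested glycolysis and hypoxia genes 13 were higher by 1.5-fold or more (48.1%, against 10.5%) and 0 lower, the median being 0.54. ENO2, an enolase, had 644 with GANT61 and 213 with DMSO, ADM, the peptide adrenomedullin, 781 with GANT61 and 268 with DMSO, and NDRG1, a hypoxia-inducible stress gene, 1917 with GANT61 and 684 with DMSO. SLC2A1, the glucose transporter GLUT1, had 3713 with GANT61 and 1654 with DMSO. Of 38 oxidative phosphorylation genes 0 were higher by 1.5-fold or more and 8 lower (21.1%, against 9.43%), with a median of -0.32 and a range from -0.86 to 0.18. The lowest were NDUFC1 and NDUFB3 of complex I, with 455 with GANT61 and 824 with DMSO and with 2292 with GANT61 and 4095 with DMSO. UQCRB and UQCRC2 of complex III had -0.75 and -0.73. These were small differences in a shared direction. Cytosolic ribosomal protein genes stayed closer to 0, with a median of -0.15. Of 35 tested, 2 were at least 1.5-fold lower (5.71%, against 9.43%), RPL7 at -0.97 and RPL14 at -0.63. Among ribosome biogenesis genes and MYC partners 4 of 26 were higher (15.4%, against 10.5%) and 0 lower. The highest was MXD1, an antagonist of MYC, with 374 with GANT61 and 157 with DMSO.

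Interferon-stimulated genes were the list with the most members higher: 38 of 41 above background on both arrays at 1.5-fold or more (92.7%, against 10.6%) and 0 lower. Of the 43 tested 32 were at least 2-fold higher, with a median of 1.33 and a lowest value of 0.31. These genes are induced by interferons through ISGF3 and IRF factors and block viral replication. IFI44L, whose promoter is shown above, had 1934 with GANT61 and 261 with DMSO, with probes at 2.89 and 2.14. MX1 and MX2, antiviral GTPases, had 6685 with GANT61 and 1311 with DMSO, and 741 with GANT61 and 102 with DMSO. OAS1 and OAS2, sensors of viral RNA, had 2.08 and 2.59, each with 3 probes, from 1.99 to 2.16 and from 1.89 to 2.59. IFITM1, a membrane protein that hinders virus entry, had 830 with GANT61 and 174 with DMSO. Of the 43, 2 were above background with GANT61 only, and the 41 on both arrays had a median of 1.42. In antigen presentation, HLA-B had 454 with GANT61 and 75.9 with DMSO (log2 ratio 2.58), though probes of HLA genes can bind relatives and alleles. The peptide transporter genes TAP1 and TAP2 had 1.56 and 0.73, and HLA-F had 0.66 and 1.53 at its probes. Over the whole list 5 of 15 were higher by 1.5-fold or more (33.3%, against 10.6%) and 0 lower, the median being 0.21. The immunoproteasome gene PSMB9 had 0.59, and the light chain gene B2M 0.46.

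Part of the NF-kB and inflammatory genes were higher. Of 39 with a probe, 16 were above background on both arrays, 9 of them higher by 1.5-fold or more (56.2%, against 10.6%) and 0 lower, with a median of 1.01. Another 6 entered only because they were above background with GANT61, and 3 of the bounds reached 1.5-fold. The lowest tested member stood at -0.48, and over every gene with a probe, detected or not, the median was 0.17. CXCL8, the neutrophil chemokine, had 1470 with GANT61 and 98.2 with DMSO (probes at 3.90 and 2.82). CCL20, a chemokine for dendritic cells and lymphocytes, had 412 with GANT61 and 22.5 with DMSO and was at least 9.91-fold higher. RELB, a subunit of NF-kB, had 177 with GANT61 and 48.7 with DMSO, and its inhibitors NFKBIA and NFKBIE 1614 with GANT61 and 505 with DMSO, and 128 with GANT61 and 44.7 with DMSO. IL32, a cytokine, was at least 2.82-fold higher. TNF, IL1A, IL1B and IL6, inflammatory cytokines, were above background on neither array, and neither were the leukocyte genes PTPRC, CD3D, CD3E and CD2.

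MAPK feedback and immediate early genes respond to growth factor and stress signals. Of 26 above background on both arrays 14 were higher by 1.5-fold or more (53.8%, against 10.6%) and 0 lower, with a median of 0.64. Beside DUSP5, the phosphatase DUSP1 had 303 with GANT61 and 88.3 with DMSO, and the AP-1 subunit FOSB was at least 3.46-fold higher. KLF4, a factor of epithelial differentiation, had 183 with GANT61 and 53.6 with DMSO (probes at 1.77 and 0.94), IER3, an early response gene, 4650 with GANT61 and 1572 with DMSO, and FOSL1, an AP-1 subunit, 138 with GANT61 and 54.6 with DMSO. Among EGF family genes the ligand HBEGF had 205 with GANT61 and 79.6 with DMSO, and the receptor gene EGFR 0.70 and 0.22 at its probes.

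Most genes of mitosis were lower, few of them by 2-fold. Of 64 G2 and mitosis genes above background on both arrays, 39 were lower by 1.5-fold or more with GANT61 (60.9%, against 8.88%) and 0 higher, and over all 65 tested 6 were lower by 2-fold or more. The median of the 65 was -0.68 and the range from -1.15 to 0.21. CKAP2L, a spindle protein whose promoter is shown above, had 88.2 with GANT61 and 196 with DMSO. CCNB1, the mitotic cyclin, had 205 with GANT61 and 441 with DMSO, MAD2L1, of the spindle checkpoint, 556 with GANT61 and 1181 with DMSO, and MKI67, the proliferation marker Ki-67, 48.6 with GANT61 and 101 with DMSO. KIF20A, a kinesin of cell division, had -1.02 and CENPF, a kinetochore protein, -1.01. By role, the 3 cyclins had a median of -0.99, the 6 kinetochore genes -0.89, the 9 spindle genes -0.83, the 10 kinesins -0.67 and the 8 kinases -0.43. The 5 checkpoint genes had -0.32, although MAD2L1 among them had -1.09.

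**Figure D4:**
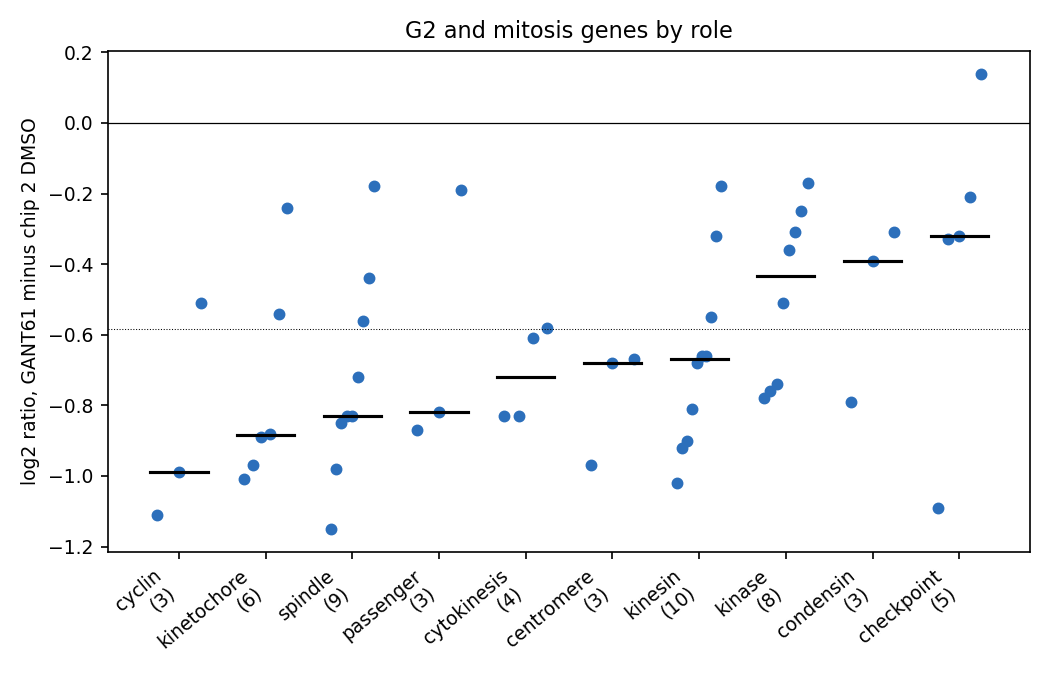
Log2 ratio, GANT61 minus chip 2 DMSO, of tested G2 and mitosis genes by role, for roles with at least 3 genes, with the number of genes in brackets, the median as a bar and 1.5-fold lower as a dotted line. Cyclins (median -0.99) lie lowest and checkpoint genes (median -0.32) highest.

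Genes of DNA synthesis differed less. Of 37 replication and nucleotide supply genes 6 were at least 1.5-fold lower (16.2%, against 9.43%) and 0 higher, with a median of -0.27. RRM2, the regulated subunit of ribonucleotide reductase, had 100 with GANT61 and 209 with DMSO, LIG1, the replicative DNA ligase, 223 with GANT61 and 433 with DMSO, and PRIM1, a primase subunit, -0.78 and -0.77 at its probes. DNA repair genes had 4 of 32 lower (12.5%, against 9.43%), near the share of all genes, and a median of -0.18. The lowest was H2AX, the histone variant that marks DNA breaks, with 328 with GANT61 and 648 with DMSO. Of 17 tested replication-dependent histones 6 were above background with DMSO only, and the bound reached 1.5-fold for 0 of these. Among the 11 on both arrays 1 was lower by 1.5-fold or more, H2AC6 (-0.68), and the median was -0.10. CDKN1A, the inhibitor p21 of cyclin-dependent kinases, had 2846 with GANT61 and 362 with DMSO (7.86-fold higher), and CDKN2B, another such inhibitor, had probes at 1.60 and 1.13. Of the 15 other tested G1 genes, 14 were above background on both arrays, with a median of 0.13, and among these 1 was higher, CCND3, a G1 cyclin (0.87), and 0 lower.

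CDKN1A and GDF15 are textbook targets of p53, and the list of p53 targets was split. Whether p53 had a part in any of these values was not tested. Of 17 above background on both arrays 4 were higher by 1.5-fold or more (23.5%, against 10.6%) and 2 lower (11.8%, against 8.88%). The median was 0.15, or -0.0071 with the probes of a gene averaged. SESN1, a sestrin induced by p53, had 127 with GANT61 and 419 with DMSO (log2 ratio -1.73), and TRIAP1, a survival factor, -0.64. AEN, a nuclease, had probes at 0.89 and 0.64. Genes of apoptosis showed few differences. Of 11 BCL2 family genes above background on both arrays 1 was higher by 1.5-fold or more (9.09%, against 10.6%) and 0 lower. The higher one was BOK, an effector of the family (0.60). PMAIP1, the BH3 protein NOXA, was above background with GANT61 only (at least 1.33-fold higher). MCL1, a survival protein, had -0.43 at one probe and 0.38 at the other, BBC3, the BH3 protein PUMA, 0.43, BAX 0.28 and -0.46, and BCL2L1, a survival protein, 0.13 and -0.50. Of 18 death receptor and caspase genes 2 were higher (11.1%, against 10.5%) and 1 lower (5.56%, against 9.43%), with a median of 0.017. Both counts were near the shares of all genes. TNFRSF10B had 629 with GANT61 and 337 with DMSO, TNFRSF21, another receptor with a death domain, 4021 with GANT61 and 2499 with DMSO, and CYCS, cytochrome c, 53.3 with GANT61 and 91.2 with DMSO. FAS, a death receptor gene, was above background on neither array, and TNFSF10, the ligand TRAIL, had -0.027.

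Most of the tested metallothioneins, small proteins that bind zinc and copper, were lower. Of the 9 genes of metallothioneins and zinc handling above background on both arrays 5 were lower by 1.5-fold or more (55.6%, against 8.88%) and 1 higher, with a median of -0.65. The 5 metallothioneins that could be tested were all below their DMSO value: MT1X with 158 with GANT61 and 466 with DMSO, MT1E with 1186 with GANT61 and 2932 with DMSO, MT1F with 59.2 with GANT61 and 134 with DMSO, MT2A with 984 with GANT61 and 1721 with DMSO, and MT1G, above background with DMSO only, at least 1.27-fold lower. MT1H and MT1M were above background on neither array, and the sequences of the family are alike enough for probes to bind relatives. The zinc importers went both ways, SLC39A14 at 0.73 and SLC39A4 at -0.65, while the exporter SLC30A1, a target of the same metal sensor MTF1, had -0.017 (other probe 0.35). MTF1 itself had -0.49.

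Several markers of the crypt and of intestinal identity were lower, and others were not. Of 13 WNT target and crypt genes above background on both arrays 6 were at least 1.5-fold lower (46.2%, against 8.88%) and 1 higher (7.69%, against 10.6%). Their median was -0.45, and over all 16 tested it was -0.43, or -0.39 with bounds. Beside ASCL2 and SP5, DKK1, a secreted WNT inhibitor, had 155 with GANT61 and 365 with DMSO, PROM1, the membrane protein CD133, 1127 with GANT61 and 2366 with DMSO, and RNF43, which removes WNT receptors, -0.78. AXIN2, a widely used WNT target that was chosen here after its value was seen, had 0.14, and LGR5, the crypt stem cell receptor chosen in the same way, was above background with DMSO only (at least 1.08-fold lower). Of 21 colonocyte and enterocyte genes 3 were higher (14.3%, against 10.5%) and 3 lower (14.3%, against 9.43%), with a median of -0.12. CDX2, the intestinal homeobox factor, had 86.1 with GANT61 and 233 with DMSO, and VIL1, the microvillus protein villin, 199 with GANT61 and 421 with DMSO. CEACAM6, an adhesion molecule, and KRT20, a keratin of differentiated cells, were higher with 1.19 and 0.85. Of 13 tested goblet and secretory genes 7 were above background on both arrays. Among these, 3 were lower by 1.5-fold or more (42.9%, against 8.88%) and 1 higher (14.3%, against 10.6%). TFF3, the trefoil peptide of goblet cells, had 145 with GANT61 and 409 with DMSO, while TFF2, another trefoil peptide, was at least 2.38-fold higher. FCGBP, a mucus protein, and AGR3, a disulfide isomerase, were at least 1.74-fold and at least 1.95-fold lower. Of the 13 goblet and secretory genes 5 were above background with DMSO only, and the bound reached 1.5-fold lower for 3 of these. Another 1 was above background with GANT61 only, TFF2.

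Among junction and adhesion genes, 4 of 28 tested were higher by 1.5-fold or more (14.3%, against 10.5%) and 1 lower (3.57%, against 9.43%). The lower one was CLDN2, a pore-forming claudin, with 301 with GANT61 and 933 with DMSO. PLAUR, the urokinase receptor, had 398 with GANT61 and 141 with DMSO (3 probes from 1.19 to 1.79), and ITGA3, an integrin, 1865 with GANT61 and 724 with DMSO. Of 9 mesenchymal genes 2 were higher (22.2%, against 10.5%) and 2 lower (22.2%, against 9.43%). The lower ones were CCN2, a matrix protein, at -1.31 (other probe -0.38) and ACTA2, smooth muscle actin, at -1.07. VIM, the mesenchymal filament protein, had 80.1 with GANT61 and 74.5 with DMSO. The S100 proteins had 3 of 8 higher (37.5%, against 10.5%) and 0 lower. The TXNIP and TSC22 family had 1 of 13 higher (7.69%, against 10.5%) and 1 lower (7.69%, against 9.43%), near the shares of all genes. The lower one was TXNIP itself (1531 with GANT61, 2578 with DMSO). Of 14 reference genes 0 were higher by 1.5-fold or more and 1 lower, PPIA, with 260 with GANT61 and 433 with DMSO, and their median was -0.023.

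**Figure D5:**
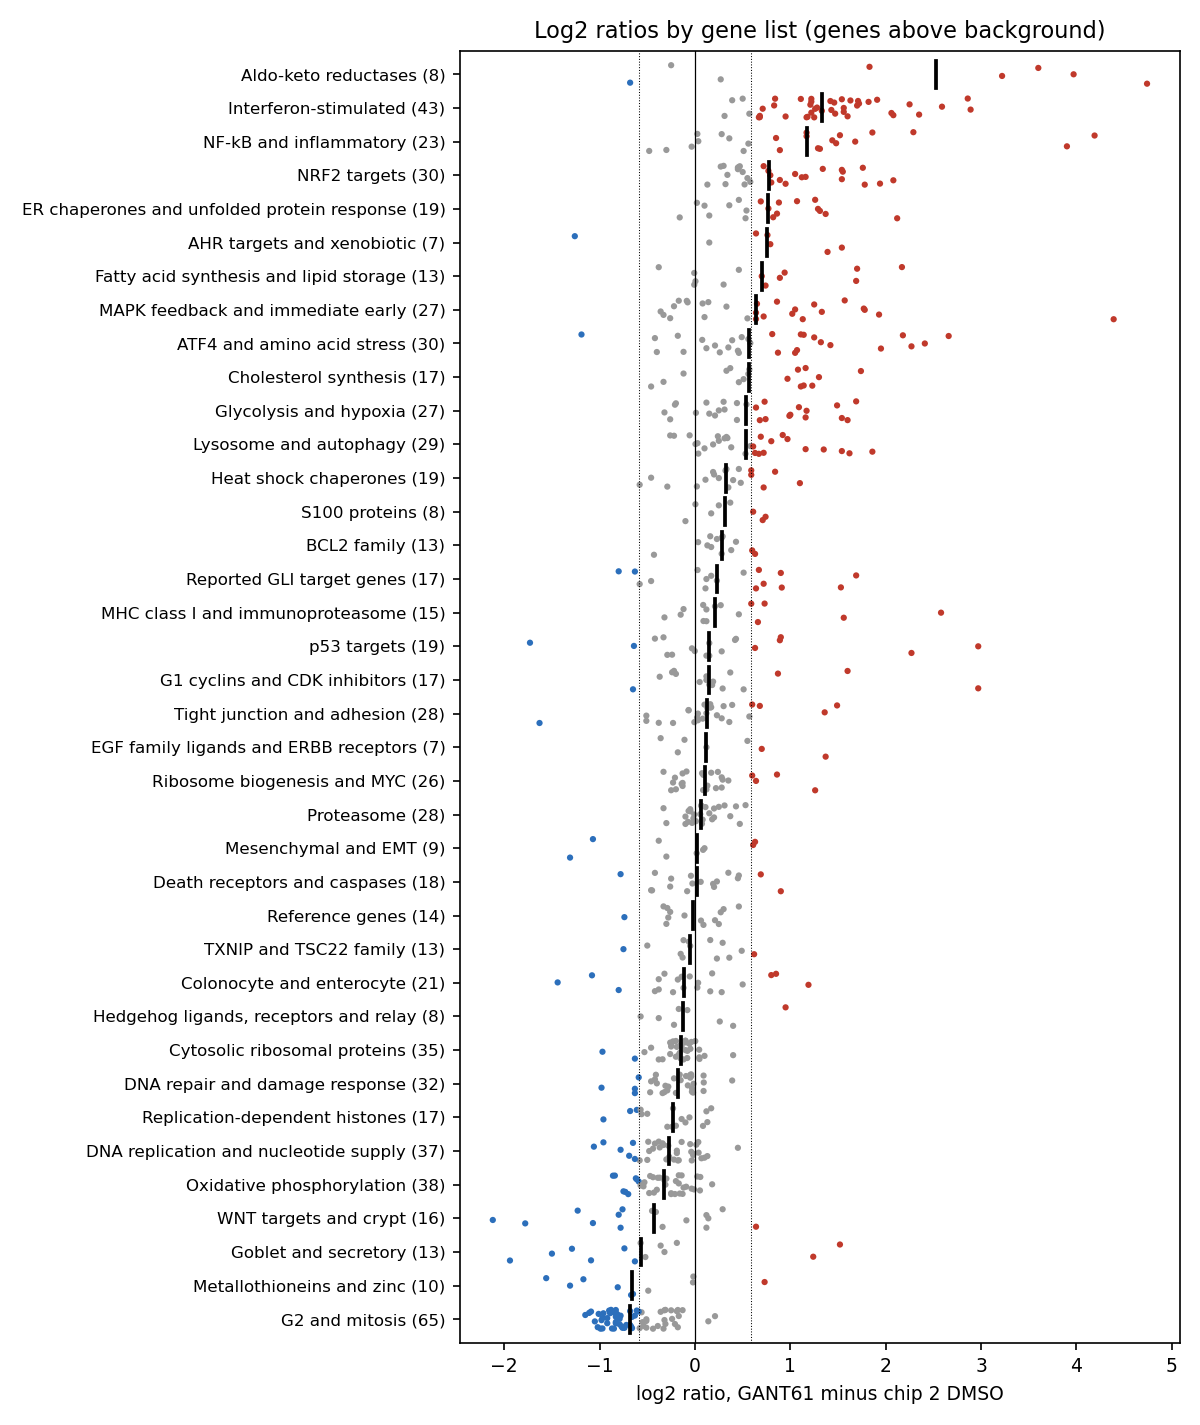
Log2 ratio, GANT61 minus chip 2 DMSO, of tested members of each list with at least 7 tested genes, with the number tested in brackets, the list median as a bar and 1.5-fold as dotted lines. Aldo-keto reductases (median 2.53) and interferon-stimulated genes (1.33) lie highest and G2 and mitosis genes (-0.68) lowest.

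Cyclopamine, a steroidal alkaloid that binds SMO, was given at the same dose and time but measured on chip 1 against a control of its own, whose labels disagree between DMSO and tomatidine. The cultures on chip 1 also stood apart in their markers, since of the 13 intestinal epithelial markers 2 were above background with cyclopamine and 2 in its control. Arrays of the same chip correlated with r of 0.983 for GANT61 and its control, and the controls of the chips with r of 0.873, so the compounds acted on cultures with different profiles and their values are given side by side. Of 8214 genes tested in both comparisons, 282 were at least 2-fold higher with GANT61 and 200 with cyclopamine (2.43%), and 42 were higher in both, 14.9% of the GANT61 genes and 21% of the cyclopamine genes. At least 2-fold lower were 115 with GANT61 and 117 with cyclopamine (1.42%), with 6 lower in both, 5.22% of the GANT61 genes and 5.13% of the cyclopamine genes. Each compound had chemokine genes at least 2-fold above its control, CCL20 at least 9.91-fold with GANT61 and at least 63.1-fold with cyclopamine, and CXCL8 15-fold with GANT61 and at least 4.41-fold with cyclopamine. DUSP5 had a log2 ratio of 4.39 with GANT61 and 0.88 with cyclopamine, and UCA1 4.01 with GANT61 and -0.13 with cyclopamine. The list medians below are over members above background on at least 1 array of their own pair, so the gene sets differ. NRF2 targets had medians of 0.78 over 30 genes with GANT61 and -0.24 over 29 with cyclopamine. Chaperones of the endoplasmic reticulum had 0.77 over 19 genes with GANT61 and -0.20 over 20 with cyclopamine. G2 and mitosis genes had -0.68 over 65 genes with GANT61 and -0.37 over 63 with cyclopamine. Interferon-stimulated genes had 1.33 over 43 genes with GANT61 and 1.07 over 29 with cyclopamine. NF-kB and inflammatory genes had 1.17 over 23 genes with GANT61, 6 of them above background with GANT61 only, and 1.34 over 24 with cyclopamine. MAPK feedback genes had 0.64 over 27 genes with GANT61 and 0.72 over 24 with cyclopamine. Whether these ratios differ between the compounds was not tested, because each rests on 1 pair of arrays and the chips cannot be told apart from the compounds.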

How the data were processed

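Total RNA of cultures labelled HT-29 was hybridised to Illumina HumanHT-12 V4 beadchips, 1 array per group. The deposited tables hold, per the file headers, summarised probe intensity and a detection p-value for each array, and the deposited series table holds log2 intensity equal to their log2 within 5e-09. What software made these values is not given in the sources used here, nor are its settings. The function neqc (limma 3.58.1, R 4.3.3) subtracted background from the intensities of 47227 probes, added an offset of 16 and applied quantile normalisation over 4 arrays. The offset shrinks ratios of dim probes. Symbols came from the platform annotation, updated through identifiers: 30111 probes had 1 symbol, 8 several and 17108 none. Each gene took its brightest probe over the 2 arrays. For a gene below background on 1 array, the lowest level of any detected probe there (45 with GANT61, 41.6 with DMSO), or the gene's own if higher, gave a lower bound of the fold. The normalisation was tested on simulated data in which only bright probes were changed, so its behaviour for dim probes was not tested.

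Genes were named by rule: the 15 highest and 15 lowest ratios with the same sign within the chip and in the series table, the 5 largest bounds each way, up to 6 members of each of 41 lists, and any member of the Hedgehog, GLI target, NRF2, aldo-keto reductase, metallothionein, death receptor and BCL2 lists. Members and lists were chosen with earlier results of these data known, and 9 alternatives were tried. Precision is limited by having 1 array per group.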

Additional observations from a re-analysis of the deposited data

How the results depend on the processing

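The 582 genes called at 2-fold kept their sign under each of the 9 alternatives in which they were tested. Of 2274 values recomputed for 256 named genes, 1965 moved by less than the between-probe spread, and 6 genes with log2 ratios of at most 0.31 changed sign (TGFA, PSMB1, S100A6, CD14, CD68 and GAPDH). Of 41 list medians 12, all of at most 0.15 in size, changed sign: those of the Hedgehog, EGF family, p53, death receptor, ribosome biogenesis, proteasome, tight junction, mesenchymal, TXNIP, fibroblast, leukocyte and reference lists. Without a detection filter the median of aldo-keto reductases lay below that of interferon-stimulated genes, which was 1.33. Against 366 higher and 216 lower genes at 2-fold, the counts were 185 and 135 in the deposited log2 series table, 236 and 85 without background correction, where 73.5% of calls were higher against 62.9%, and 271 and 107 with an offset of 50.

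For all genes the median was -0.11 with the series table, against -0.012, a shift smaller than the spread. List medians that moved by more than the spread were as follows. With the series table the lists had 0.49 for NRF2 targets, 2.09 for aldo-keto reductases and 0.46 for chaperones of the endoplasmic reticulum. It also gave 1.00 for interferon-stimulated genes, 0.47 for the AHR and xenobiotic list and -0.44 for cytosolic ribosomal proteins. Without a detection filter the medians were 1.05 for aldo-keto reductases, 0.17 for inflammatory genes and 0.30 for fatty acid genes. They were -0.25 for metallothioneins and zinc, -0.23 for goblet genes and 0.18 for the AHR and xenobiotic list, since undetected members near 0 then enter. Aldo-keto reductases had 2.23 without background correction, inflammatory genes 0.73 with an offset of 50, and averaging probes gave -0.30 for mesenchymal genes and 0.23 for the TXNIP list. For the other moves the cause was not tested. No paired analysis was possible because each group has 1 array, and no replicate could be left out. Genes not well above background on 1 array carry only bounds.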

Other observations

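Gene families defined by their symbols, and chosen after their values were seen, gave further values that are a description only. Over all tested genes 9.43% were at least 1.5-fold lower and 10.5% at least 1.5-fold higher. Of 15 tested IFT genes, which encode the transport particles of the primary cilium, 6 were at least 1.5-fold lower with GANT61 and 0 higher. The median log2 ratio of the 15 was -0.39. Of the 6, IFT140 was above background with DMSO only, and its bound reached only 1.2-fold. IFT74 had a normalised intensity of 91 with GANT61 and 170 with DMSO, and IFT46 108 with GANT61 and 181 with DMSO. IFT122 had 85.4 with GANT61 and 158 with DMSO (log2 ratio -0.89), but its other probe had -0.025. The size of the IFT122 difference is therefore uncertain. These signals were all dim. Of 48 MRPL genes, which encode proteins of the large mitochondrial ribosomal subunit, 11 were lower and 0 higher, with a median of -0.32. Of 9 HOXB genes, homeobox factors of body patterning, 4 were lower and 0 higher, among them HOXB7 (1007 with GANT61, 1751 with DMSO) and HOXB5 (2394 with GANT61, 3812 with DMSO). Of 22 HNRNP genes, which encode RNA-binding proteins of the nucleus, leaving out pseudogenes, 6 were lower and 0 higher. Of 10 KLF factors 4 were higher and 0 lower, led by KLF9 (254 with GANT61, 53.6 with DMSO), KLF4 and KLF6.

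Among 27 MRPS genes, of the small mitochondrial subunit, the median was -0.18, but MRPS6 stood apart with 7482 with GANT61 and 1771 with DMSO (4.22-fold higher). It starts at the same base of chromosome 21 as SLC5A3 (34073578, GRCh38.p14), which was at least 6.86-fold higher. TYMSOS, at a log2 ratio of -1.74, overlaps the start of TYMS on chromosome 18, which had -0.44. Whether such neighbouring genes share transcripts or reads of a probe was not tested. Of 3935 detected probes without a gene symbol, 92 were higher and 69 lower with GANT61 by 2-fold or more.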
